A study of Mus musculus with 7 samples.

Results

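The S100 calcium-binding genes described here are S100a3, S100a4, S100a6, S100a8, S100a9, S100a10, S100a11, S100a13, S100a14 and S100a16. They were taken by symbol, 10 genes of the 31907 listed in any of the expression tables of the study. The table of donor cells lists 7 of them (S100a3, S100a4 and S100a14 are not in it), the table of keratinocytes lists all 10, and the table of host cells lists 9, without S100a9. RNA of single cells from mouse epidermis was read by 5′ droplet sequencing with unique molecular identifiers (UMIs). All cells were taken 3 weeks after bone marrow transplantation (BMT), from lethally irradiated male CD45.2 C57BL/6 hosts of female CD45.1 C57BL/6 donors, and the study pooled mice for a library. Donor CD11b+MHCII+ myeloid cells came as 3 libraries labelled BMT and 1 labelled BMT plus T cells, CD45-negative host keratinocytes as 1 library under each label, and host CD11b+MHCII+ cells as 1 library labelled BMT.

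In the design text of the series, CD8 T cells of the Matahari line, which recognise a male antigen, were given together with CD4 T cells. The sample labels mention T cells for only some of the libraries, so a comparison below is one between labels, here written BMT and BMT + T (BMT + T cells in the plots). The libraries were separate samples by their labels. The study describes independent sorting and sequencing experiments on pooled mice for the donor cells, but no label says which library came from which. The p-values therefore rest on these libraries. Between labels they measure the spread between libraries. Between clusters, differences between whole libraries were taken out first. Those p-values measure the remaining scatter of library and cluster means, with 1 estimate of it shared by all clusters. Donor libraries held 226 to 8382 cells at median depths of 7021.5 to 13387 UMIs per cell, and the members took 1.33 to 1.64% of all UMIs. The keratinocyte libraries held 2590 and 2836 cells, with 1.28 and 1.26% of UMIs on the members, and the host library held 781 cells, with 0.576%. These shares cover 7 members in donor cells, 10 in keratinocytes and 9 in host cells, and are not compared. Any pair of libraries shared between 0 and 7 cell barcodes. Levels are given as the mean UMIs per 10000 UMIs of a cell (CP10K). They are compared for 1 gene between clusters and not between genes, apart from the share of S100a8 among the UMIs of S100a8 and S100a9.

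S100 proteins are small proteins that bind calcium through paired EF hands and work mostly as dimers. S100a8 and S100a9 form calprotectin, an abundant protein of neutrophils and early monocytes that is also made by inflamed keratinocytes. S100a10 pairs with annexin A2 at membranes, S100a11 binds annexin A1, S100a6 binds the calcyclin-binding protein, and S100a4 binds non-muscle myosin. Most of the genes lie side by side in the epidermal differentiation complex, next to genes for proteins of the cornified layer.

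On mouse build GRCm38.p6, all 10 genes lie on chromosome 3. A first block runs from S100a13 (chr3:90514233-90524581) through S100a14, S100a16, S100a3, S100a4, S100a6 and S100a8 to S100a9, and S100a11 (chr3:93520496-93526288) and S100a10 (chr3:93555117-93564645) stand apart, 2824775 bases further on. S100a8 (chr3:90669071-90670034, plus strand) and S100a9 (chr3:90692630-90695721, minus strand) are neighbours, 22596 bases apart. The 250 bases before the start of each are shown because these genes set the S100a+ Mono cluster apart and were not found at 1 ratio in all clusters. They are from RefSeq, build GRCm38.p6, whose promoter table holds 8 of the 10 members (not S100a10 and S100a14), and are read 5′ to 3′ on the strand of the gene. Capitals mark matches on either strand. The letters TATAAA stand for the TATA box. The letters TTGCNNAA stand for a C/EBP site. The core GAGGAA is bound by PU.1 and related ETS factors. The AP-1 site was searched as TGANTCA. The matches do not overlap one another, and the PU.1 core at -36 ends where TATAAA begins.
S100a8, chr3:90668821-90669070, plus strand: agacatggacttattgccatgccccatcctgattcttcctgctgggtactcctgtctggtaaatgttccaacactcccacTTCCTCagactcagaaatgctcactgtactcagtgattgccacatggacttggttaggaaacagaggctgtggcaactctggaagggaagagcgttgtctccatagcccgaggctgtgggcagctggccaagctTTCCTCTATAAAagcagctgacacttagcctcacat
S100a9, chr3:90695722-90695971, minus strand: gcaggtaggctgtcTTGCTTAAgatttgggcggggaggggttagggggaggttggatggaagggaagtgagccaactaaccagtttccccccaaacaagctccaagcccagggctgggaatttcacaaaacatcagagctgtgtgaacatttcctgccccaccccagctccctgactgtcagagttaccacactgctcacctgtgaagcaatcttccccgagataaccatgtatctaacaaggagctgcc
Upstream of S100a8, TATAAA begins at -30 from the start and GAGGAA stands on the opposite strand at -170 and -36. Upstream of S100a9, TTGCNNAA begins at -236. TGANTCA has no match in either window. Over 32851 RefSeq promoter windows of the same length, 12.4% hold TATAAA, 9.56% TTGCNNAA, 23.3% GAGGAA and 6.75% TGANTCA. A match says only that these letters are there.

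S100a8 and S100a9 were the members that differed most among the 9 clusters of donor cells. The study named one of these clusters S100a+ Mono, so its levels are given as a description, without a test. It held 11 cells of BMT replicate 1, 594 of BMT replicate 2, 0 of BMT replicate 3 and 9 of the BMT + T library. S100a8 stood at 723, 262 and 616 CP10K in the S100a+ Mono cells of BMT replicate 1, BMT replicate 2 and the BMT + T library. S100a9 stood at 791, 247 and 785 CP10K in the same cells. In each library these levels were above those of every other cluster, and they were lowest in BMT replicate 2, which gave most of the cells. The S100a+ Mono cells held 57.3, 91.9 and 63.2% of all S100a8 UMIs of their libraries, and 93.6, 93.2 and 83.8% of the S100a9 UMIs.

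**Figure D1:**
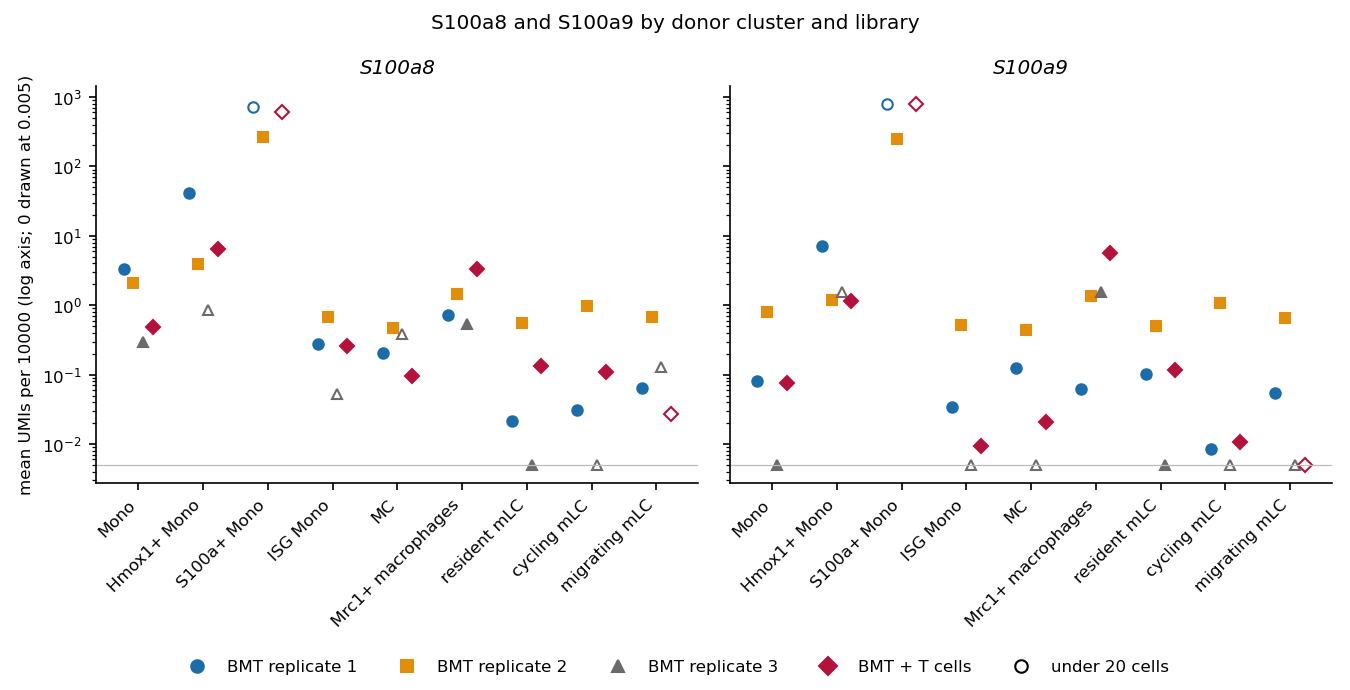
Mean S100a8 (left) and S100a9 (right) in UMIs per 10000, on a log axis, for each donor cluster (x axis) and library (colour and shape). Open marks stand for fewer than 20 cells, and values of 0 are drawn at the line at 0.005. For S100a8, S100a+ Mono lie from 262 to 723, and Hmox1+ Mono come next in every library.

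The S100a+ Mono cells were not uniform. In BMT replicate 2, S100a8 ran from 0 over a median of 72.3 to 2505 CP10K, with 24 of 594 cells at 0. These cells were then ordered by S100a8 plus S100a9 and split into 3 equal parts of 198 cells. S100a8, whose rise the ordering itself sets, was at 13.99, 81.5 and 691 CP10K. Along the same parts S100a11 was at 12.6, 15.7 and 37.0 CP10K and S100a6 at 80.1, 89.2 and 118. S100a10 was at 12.0, 13.6 and 7.39 CP10K, lowest in the part richest in S100a8 plus S100a9. Retnlg, a neutrophil gene, was at 2.53, 12.3 and 110 CP10K, and the granulocyte receptor gene Csf3r at 2.11, 2.44 and 10.9. Cd74, the MHC class II invariant chain, was at 102, 120 and 65.0 CP10K. Median depth was 4739.5, 7638 and 2999 UMIs, and its part in these values was not tested. In BMT replicate 1 and under BMT + T, where the few S100a+ Mono cells had median S100a8 levels of 342 and 444 CP10K, S100a10 was at 0 in 8 of 11 and 8 of 9 cells, and S100a11 at a mean of 59.3 and 53.2 CP10K.

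Of 11 neutrophil genes looked at beside the cluster, 10 are in the donor table. Their summed level in S100a+ Mono was 118, 72.7 and 122 CP10K in BMT replicate 1, BMT replicate 2 and the BMT + T library, and 1.07 to 18.0 CP10K in the other clusters. Retnlg was at 80.4, 41.7 and 27.5 CP10K, and at most 0.209 elsewhere. Csf3r was at 7.64, 5.13 and 7.89 CP10K, against at most 0.931, and Cxcr2, a chemokine receptor of neutrophils, at 3.86, 3.89 and 8.48, against at most 0.658. Among genes of granule proteins, Mmp9 was at 4.95, 3.12 and 7.42 CP10K, against at most 2.20, and Mmp8 at 2.12, 1.59 and 1.66, against at most 0.636. Ngp was at 0.873, 0.991 and 0 CP10K, against at most 0.0522, while Camp had 5 UMIs and Ltf 0 UMIs in the cluster. Clec4d (12.2, 7.13 and 30.4 CP10K, at most 14.0128 elsewhere) and Il1r2 (5.52, 9.18 and 38.8, at most 11.9 elsewhere) stood below the highest value elsewhere in BMT replicates 1 and 2. Ly6g is not listed. In each of these libraries the summed level was highest in S100a+ Mono, as were S100a8 and S100a9. Single genes did not all follow S100a8 from library to library. The part of neutrophils in these levels was not tested.

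Outside S100a+ Mono, S100a8 was highest in Hmox1+ Mono, a small monocyte cluster named for heme oxygenase 1. It was at 40.9, 3.99 and 6.38 CP10K in BMT replicates 1 and 2 and the BMT + T library, and at 3.38, 2.08 and 0.490 in Mono, the classical monocytes. Hmox1+ Mono were higher in each of these libraries, but the value of BMT replicate 1 rested on 24 cells, of which 1 held 258 of 676 UMIs, and without that cell it was 22.0 CP10K. In BMT replicate 3, where Hmox1+ Mono were 6 cells, S100a8 was at 0.843 CP10K, and in Mono at 0.296.

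S100a8 rose in Hmox1+ Mono against Mono by a log2 fold change of 2.75 (SE 0.88, limma, Benjamini-Hochberg adjusted p 0.0446, higher in 3 of 3 libraries with at least 20 cells of both). A gene was called between clusters where the absolute log2 fold change was above 2 and the adjusted p under 0.05, over 7267 genes at a mean of at least 0.1 CP10K. S100a16 did not pass this filter, at up to 0.0609 CP10K in a library and cluster of at least 20 cells, which left 6 members to test. In this comparison 0.894% of all genes were called (0.537% higher), and 1 of the 6 members. Clusters were drawn from the same cells, so these calls describe the annotation. The call was lost without BMT replicate 1 (2.09, adjusted p 0.0729), without BMT replicate 3 (2.64, adjusted p 0.0864) and without the BMT + T library (2.60, adjusted p 0.144). It was also lost in most other settings, and its adjusted p ran from 0.00132 to 0.261 over them all. S100a9 differed by 3.07 (SE 1.04, adjusted p 0.0579), at 7.14, 1.20 and 1.15 CP10K against 0.0822, 0.810 and 0.0749.

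S100a10 was higher in Hmox1+ Mono than in Mono by a log2 fold change of 0.83 (SE 0.17, limma adjusted p 0.00171, 3 of 3 libraries) and S100a11 by 0.74 (SE 0.19, adjusted p 0.0106, 3 of 3). Neither reached a log2 fold change of 2. At an adjusted p under 0.05 alone, 15.5% of all genes passed. S100a10 was at 60.2, 30.3 and 33.4 CP10K in Hmox1+ Mono, above every Mono library, which lay from 17.3 to 26.8. S100a6 differed by 0.37 (adjusted p 0.0656) and S100a13 by 0.01 (adjusted p 0.982).

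Resident mLC, the monocyte-derived Langerhans cells that express Cd207 and Epcam, were compared with Mono, since the study follows the path from one to the other. S100a8 fell from 3.38, 2.08, 0.296 and 0.490 CP10K in Mono of BMT replicates 1 to 3 and the BMT + T library to 0.0215, 0.548, 0 and 0.135 in resident mLC. The groups overlapped only through BMT replicate 2, whose resident mLC stood above the Mono of BMT replicate 3 and of the BMT + T library. The log2 fold change was -2.48 (SE 0.80, limma adjusted p 0.0249), lower in 4 of 4 libraries. It was the only call among the 6 members, where 4.06% of all genes were called (2.56% lower). In the BMT + T library 1 of 320 resident mLC held 202 of the 210 S100a8 UMIs, and without that cell the level was 0.0182 CP10K. Leaving out the cell richest in S100a8 from every library and cluster, which was done after seeing the data, kept resident mLC below Mono in all 4 libraries. The call was lost without BMT replicate 1 (-1.69, adjusted p 0.0397) and without BMT replicate 3 (-2.64, adjusted p 0.0555), and without the library block (adjusted p 0.0524).

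S100a11 moved in the other direction. It was at 31.3, 29.6, 44.4 and 36.2 CP10K in resident mLC and at 23.3, 17.3, 16.3 and 13.8 in Mono, without overlap. The log2 fold change of 1.00 (SE 0.17, limma adjusted p 7.17e-05, higher in 4 of 4 libraries) stayed under the fold threshold of 2. Resident mLC had the highest mean S100a11 of all clusters, 35.4 ± 6.67 CP10K (SD, n = 4), followed by Hmox1+ Mono at 30.5 ± 10.9 (n = 3) and migrating mLC at 28.5 ± 2.82 (n = 2), whose library ranges overlapped with their neighbours in this order. Mrc1+ macrophages were lowest, at 11.9 ± 1.96 (n = 4), below every library of Mono at 17.7 ± 3.996 (n = 4).

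S100a6 was slightly lower in resident mLC than in Mono, by a log2 fold change of -0.41 (SE 0.12, limma adjusted p 0.0119, lower in 4 of 4 libraries), at 60.3, 92.6, 68.1 and 64.4 CP10K against 96.2, 109, 91.6 and 79.2. The sets overlapped, with resident mLC of BMT replicate 2 inside the range of Mono. S100a6 was abundant in every cluster, from 48.2 ± 16.2 CP10K (n = 3) in cycling mLC to 121 ± 11.8 (n = 3) in Hmox1+ Mono. S100a9 (-0.03, adjusted p 0.986), S100a10 (0.00, adjusted p 0.993) and S100a13 (-0.15, adjusted p 0.380) did not pass the test. At an adjusted p under 0.05 alone, 32.7% of all genes passed, and 3 of the 6 members.

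**Figure D2:**
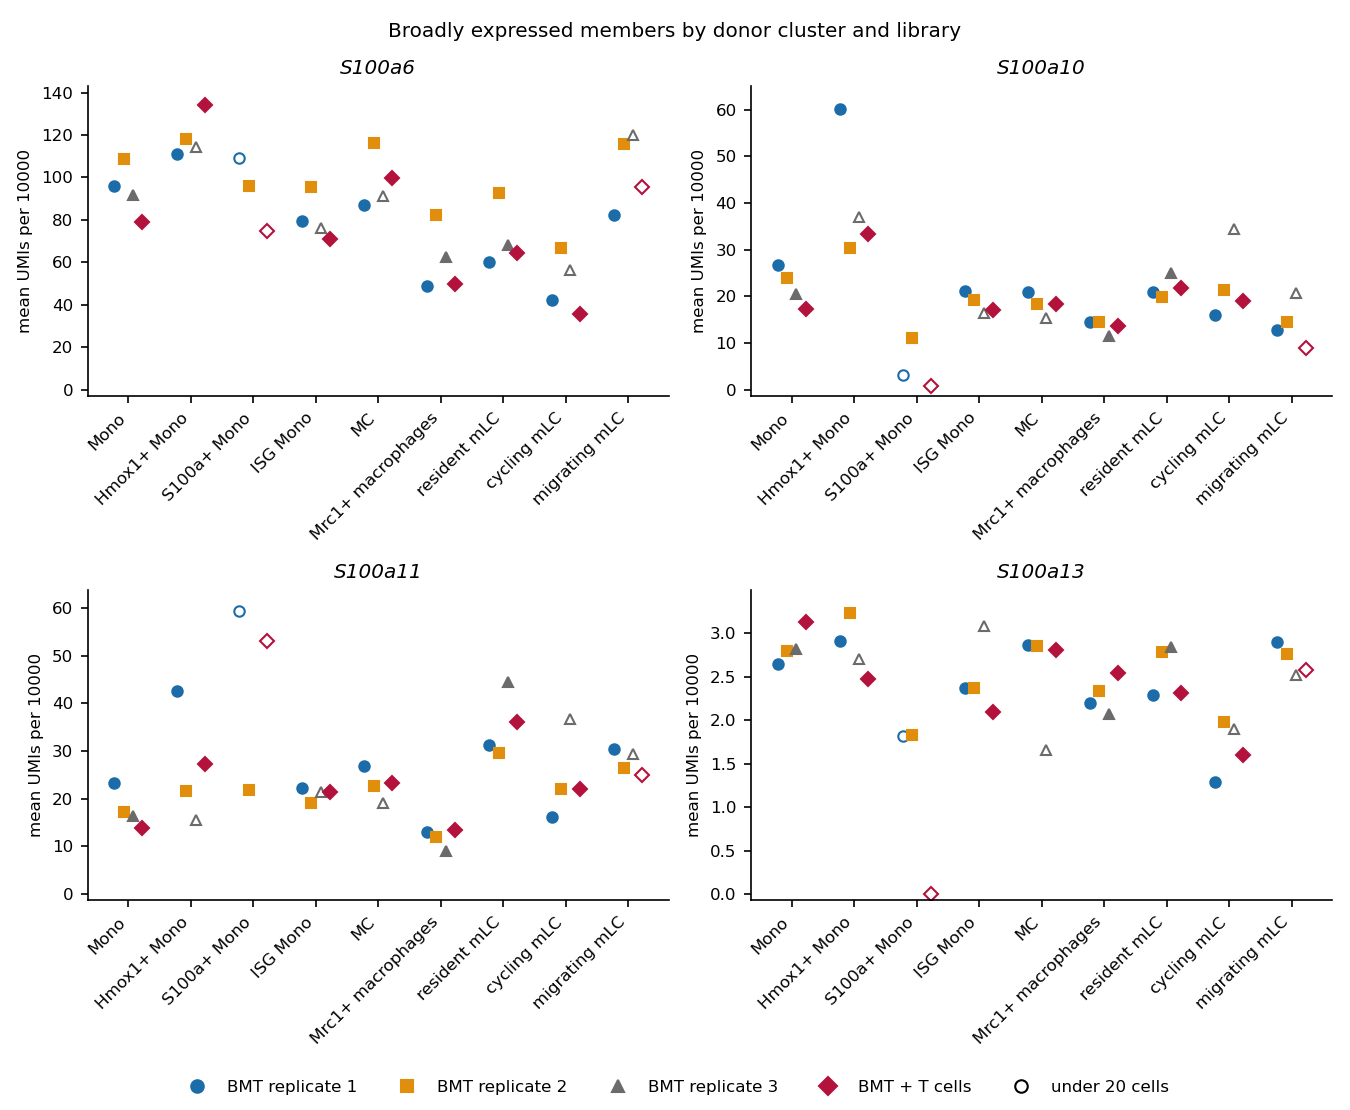
Mean S100a6, S100a10, S100a11 and S100a13 in UMIs per 10000 (y axes from 0) for each donor cluster and library, with open marks for fewer than 20 cells. S100a11 has its highest mean in resident mLC (35.4), though in BMT replicate 1 Hmox1+ Mono stand above them (42.6 against 31.3). S100a10 has its highest mean in Hmox1+ Mono (41.3).

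Resident mLC were also set against Mrc1+ macrophages. S100a11 was higher in resident mLC by a log2 fold change of 1.57 (SE 0.17, limma adjusted p 1.48e-07, 4 of 4 libraries), with every resident library at 29.6 CP10K or more and every macrophage library at 13.4 or less. S100a10 was higher by 0.69 (SE 0.16, adjusted p 0.00131, 4 of 4), at 19.9 to 25.04 CP10K against 11.6 to 14.6, again without overlap. Both stayed under the fold threshold. S100a8 was called lower in resident mLC, by -2.64 (SE 0.80, adjusted p 0.0183, 4 of 4 libraries), as 1 of the 6 members where 3.51% of all genes were called (2.46% lower). By adjusted p alone 31.5% of genes passed, and 3 members. In Mrc1+ macrophages it was at 0.714, 1.47, 0.532 and 3.38 CP10K. In the BMT + T library 1 macrophage of 73 held 58 of the 90 S100a8 UMIs and 107 of the 114 S100a9 UMIs, and without it the levels were 0.328 and 0.105 CP10K. Leaving out the richest cell in every library and cluster kept resident mLC below the macrophages for S100a8 in 4 of 4 libraries. The call was lost without the BMT + T library (-2.23, adjusted p 0.0941) and without BMT replicate 3 (-2.64, adjusted p 0.0655). S100a9 differed by -2.44 (adjusted p 0.0597), lower in 3 of 4 libraries, and was called without BMT replicate 1 (-3.36, adjusted p 0.0146). In BMT replicate 3, 1 macrophage held 6 of the 9 S100a9 UMIs, and without it the level fell from 1.55 to 0.175 CP10K. The fit that called S100a9 included this cell and the rich macrophage of the BMT + T library. S100a6 (0.24, adjusted p 0.137) and S100a13 (0.15, adjusted p 0.385) did not pass.

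The step from Mono to Mrc1+ macrophages and the cycling mLC were compared after earlier values had been seen. In Mrc1+ macrophages S100a6 was lower than in Mono by a log2 fold change of -0.65 (SE 0.12, limma adjusted p 0.00132), S100a10 by -0.69 (SE 0.16, adjusted p 0.00645) and S100a11 by -0.56 (SE 0.17, adjusted p 0.0471), each in 4 of 4 libraries and under the fold threshold. By the full rule 0.413% of all genes were called, and no member, and by adjusted p alone 7.86% of genes and these 3 members passed. S100a11 thus lay below Mono in macrophages and above Mono in resident mLC. In cycling mLC, S100a6 (-0.60, adjusted p 0.00390), S100a11 (-0.82, adjusted p 0.00585) and S100a13 (-0.64, adjusted p 0.00307) were lower than in resident mLC in 3 of 3 libraries. Here 1.36% of all genes and no member were called, and 10.7% of genes passed by adjusted p alone. S100a13 was otherwise the flattest member, with cluster means of 1.62 to 2.87 CP10K.

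Migrating mLC, the cells marked by Ccr7 and Cd83, were compared with resident mLC in BMT replicates 1 and 2, which had at least 20 of them. S100a10 was lower, at 12.8 and 14.4 CP10K against 21.0 and 19.9 (log2 fold change -0.75, SE 0.20, limma adjusted p 0.00846, 2 of 2 libraries), and stayed under the fold threshold. S100a6 was at 82.3 and 116 CP10K against 60.3 and 92.6 (0.40, adjusted p 0.0710), and S100a11 at 30.5 and 26.5 against 31.3 and 29.6 (-0.31, adjusted p 0.331). limma called 2.61% of all genes and none of the 6 members, and voom on recovered UMIs called none of them either. By adjusted p alone 20.1% of genes passed. The fit also drew on the resident mLC of the other libraries, and within BMT replicates 1 and 2 the log2 differences were smaller, from -0.70 to -0.46 for S100a10 and from -0.16 to -0.04 for S100a11.

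**Figure D3:**
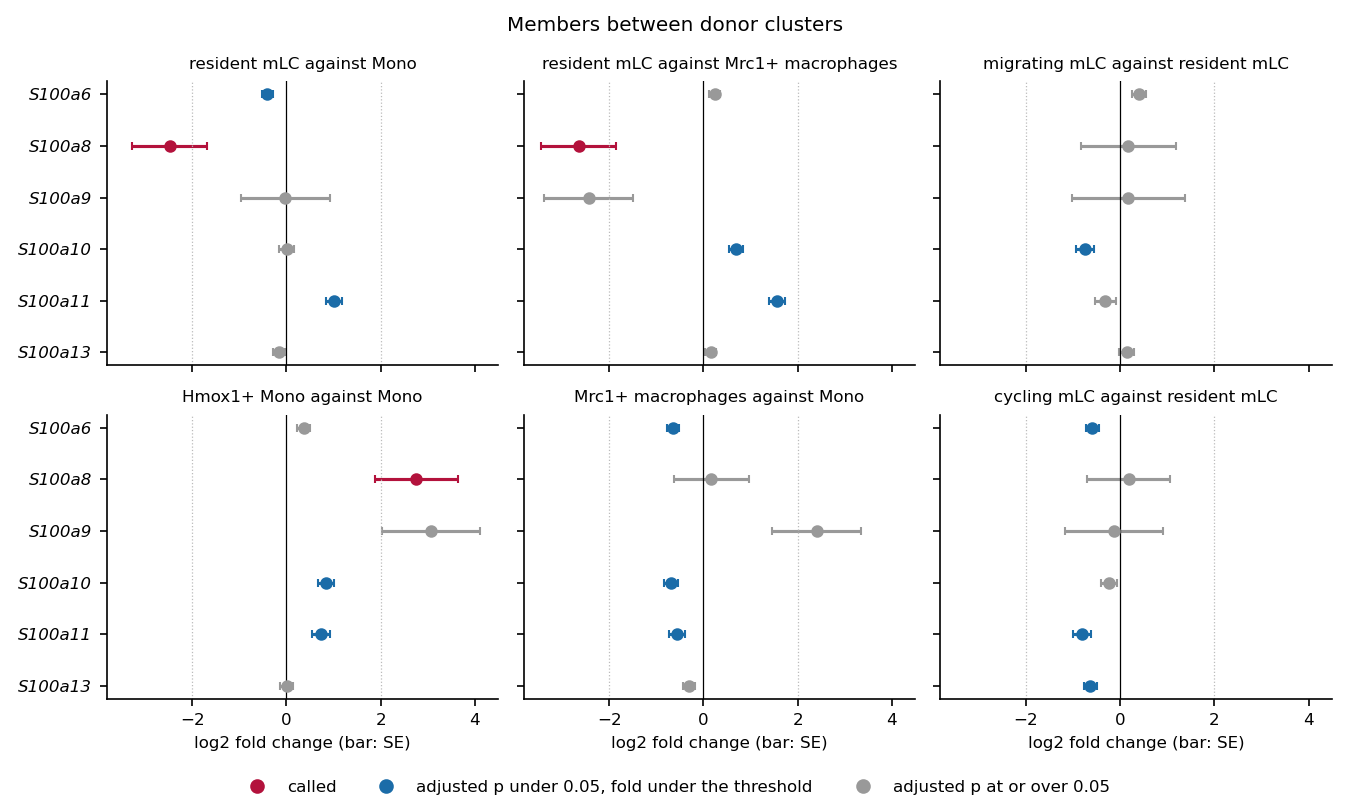
Log2 fold change (x axis, bars are standard errors) of the 6 tested members in 6 comparisons of donor clusters. Red marks were called, blue marks passed the adjusted p of 0.05 under the fold threshold, and dotted lines stand at 2 and -2. S100a8 gives all 3 red marks, and S100a11 lies to the right in both comparisons of resident mLC.

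The share of S100a8 among the UMIs of S100a8 and S100a9 differed between clusters. In S100a+ Mono it was 47.4% (95% Clopper-Pearson interval 46.2 to 48.6), 50.9% (50.6 to 51.2) and 45.1% (43.5 to 46.8) in BMT replicate 1, BMT replicate 2 and the BMT + T library. In Mono of these libraries it was 97.5% (96.2 to 98.5), 68.9% (65.8 to 71.8) and 86.0% (73.3 to 94.2), and in BMT replicate 3 all 15 UMIs were of S100a8. In Hmox1+ Mono it was 85.2% (82.6 to 87.6), 77.5% (71.7 to 82.7) and 89.2% (86.5 to 91.6). The intervals of both clusters lay above those of S100a+ Mono in all 3 libraries. Intervals cover counting error only. In Mono of BMT replicate 1, 87 cells had S100a8 alone, 2 had S100a9 alone and 9 had both. In Mono of BMT replicate 2 these were 137, 53 and 45 cells, and in S100a+ Mono of that library 7, 16 and 563. S100a8 stood at 2.08 CP10K in Mono and at 262 in S100a+ Mono of BMT replicate 2. The part of this level in the cells with both was not tested.

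In BMT replicate 2, where S100a+ Mono were most numerous, the share was 51.3% in MC (converting monocyte-derived cells), 52.3% in resident mLC, 52.7% in migrating mLC and 48.0% in cycling mLC. The intervals of MC, resident mLC, migrating mLC and cycling mLC each contained the 50.9% of S100a+ Mono in that library. In BMT replicate 1 the 1250 ISG Mono (interferon-stimulated genes) stood at 92.6% and the Mrc1+ macrophages at 95.3%, against 57.6 and 55.7% in BMT replicate 2. The level of S100a8 and S100a9 outside the S100a+ Mono cells thus differed by library in ratio as well as in amount. The part of free RNA in these values was not tested.

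**Figure D4:**
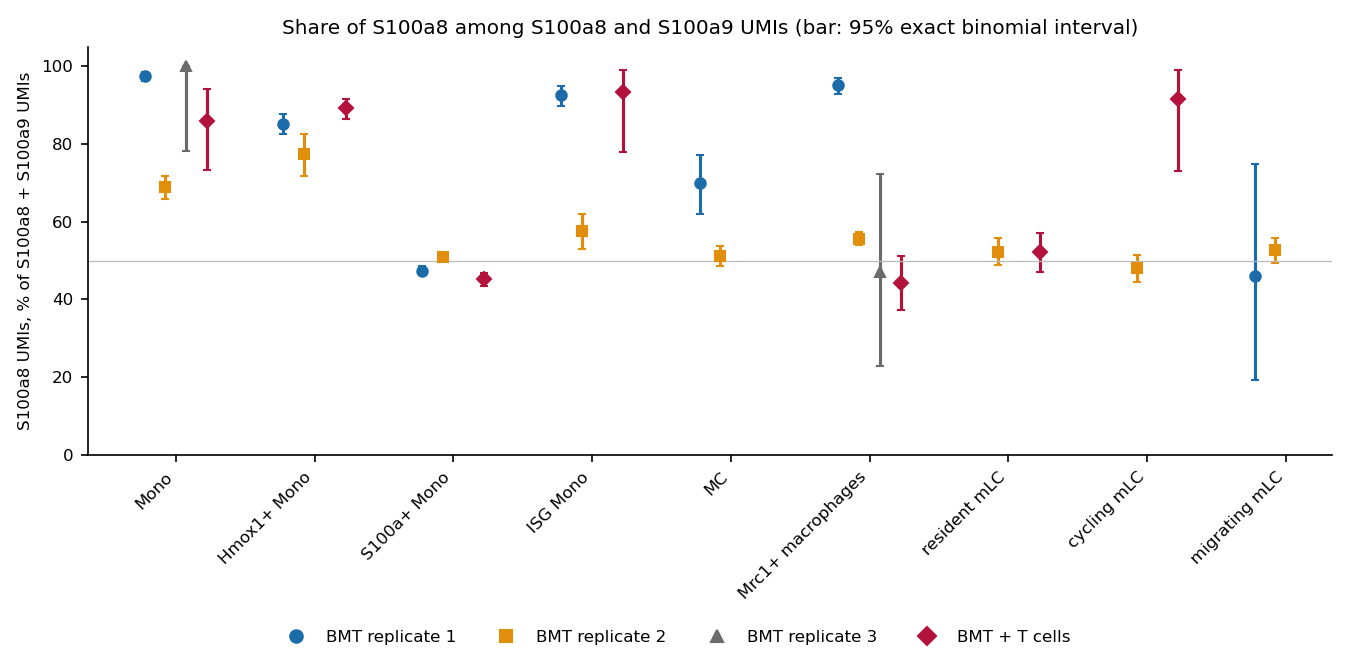
S100a8 UMIs as a percent of S100a8 plus S100a9 UMIs (y axis) for each donor cluster and library with at least 10 such UMIs. Bars are 95% exact binomial intervals and the line marks 50%. Mono and Hmox1+ Mono lie above S100a+ Mono in every library shown for both.

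The share of cells with an S100a8 UMI was compared between Mono and resident mLC. At their own depth 39.0, 33.3, 12.2 and 23.8% of Mono in BMT replicates 1 to 3 and the BMT + T library had one, and 1.90, 16.9, 0 and 2.19% of resident mLC, the cluster with the lowest mean. Median depths were 10821, 5382, 10802 and 11693 UMIs in Mono and 10082, 7343, 18027 and 12852.5 in resident mLC. When each cell was thinned to 2000 UMIs, which left out 6, 20, 3 and 6 of the Mono and 19, 48, 4 and 45 of the resident mLC, the shares were 20, 16.7, 6.33 and 3.51% against 1.16, 5.86, 0 and 0.364%. The Mono shares stayed above those of resident mLC in each library. For the BMT + T library and BMT replicate 3, the 95% Clopper-Pearson intervals of the thinned shares overlapped. Hmox1+ Mono stood at 54.2, 31.5 and 52.1% after thinning in BMT replicates 1 and 2 and the BMT + T library, from 75, 45.5 and 79.2%.

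Donor cells of the BMT + T library were compared with the 3 BMT libraries on the mean over Mono, Mrc1+ macrophages and resident mLC, the clusters with at least 20 cells in all 4. For labels a log2 change of 1 in either direction was required beside the adjusted p. limma called 0% of 7345 genes and none of the members, while 352 genes had an unadjusted p under 0.05. The members' log2 differences ran from -0.28 for S100a6 to 0.79 for S100a9, each with an adjusted p of 0.962 or more. S100a6 and S100a10 were lower than in all 3 BMT libraries (-0.28 and -0.14), and S100a13 was higher than in all 3 (0.07). The names of the libraries come in pairs, which are read here as experiments, although no label says so. Against BMT replicate 3 alone, the library of the same pair, S100a8 differed by 1.42 and S100a9 by 1.25. Both values rested on single cells: without the richest cell of each library and cluster, S100a8 differed by 0.075 and S100a9 by -0.08. This compares 1 library with 1 library, without replicates. The fit with the experiment as a term, given in the last section, rests on the same contrast. It called S100a8 with those richest cells included.

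Among partners and receptors, lists chosen with the values of this study known, Anxa2, which encodes the annexin that binds S100a10, could be set beside it. In Hmox1+ Mono against Mono both were higher, Anxa2 by a log2 fold change of 0.81 (SE 0.19, limma adjusted p 0.00517). In migrating against resident mLC Anxa2 was higher by 0.85 (SE 0.22, adjusted p 0.00740) while S100a10 was lower. Of 8 partner genes tested, none was called in the comparisons of resident mLC with Mono or Mrc1+ macrophages, of migrating with resident mLC, or of Hmox1+ Mono with Mono. By adjusted p alone, 4 were lower and none higher in resident mLC against Mono, where 32.7% of all genes passed, with a median log2 fold change of -0.40 beside 0.14 for all genes. By the same rule 2 were lower and none higher against Mrc1+ macrophages (31.5% of genes), 2 were higher and none lower in migrating mLC (20.1%), Anxa2 and Anxa4, and 2 in Hmox1+ Mono (15.5%), Anxa2 and Anxa5.

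Of 5 genes of the receptor list that were tested, 1 was called in each of these comparisons, where 4.06, 3.51, 2.61 and 0.894% of all genes were. A place on this list is no evidence that the protein binds an S100 protein. It was Cd36, a scavenger receptor that binds S100a8 and S100a9 with lipid. Cd36 was called lower in resident mLC against Mono (-2.27, limma adjusted p 0.00329) and against Mrc1+ macrophages (-3.37, adjusted p 8.87e-05). It was called higher in migrating mLC (3.15, adjusted p 0.00317) and in Hmox1+ Mono (2.18, adjusted p 0.0193). Under the fold threshold, Cd68 was lower (-1.45, adjusted p 3.18e-07) and Alcam higher (1.79, adjusted p 6.33e-08) in resident mLC than in Mono. Ptprc, which also serves below as a general myeloid gene, was lower there (-0.59, adjusted p 0.00352), and Bsg did not pass (-0.02, adjusted p 0.925). Tlr4, a receptor for the S100a8 and S100a9 dimer, had 129 UMIs in all donor cells and was not tested. Of the rest of the family only S100a1 and S100pbp could be tested, and S100a1 was higher in resident mLC than in Mono (0.79, adjusted p 0.00237).

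Over the 27 donor library and cluster means used in the fit, S100a8 and S100a9 were alike at a Pearson r of 0.884. The genes outside the set most like S100a8 were Ndel1 (0.893), Slpi (0.869) and Selenon (0.858), and those most like S100a9 were Cstdc4 (0.841), Retnlg (0.839) and Stfa2l1 (0.786). For S100a6 they were Sem1 (0.848), Rab11a (0.830) and Myl6 (0.810), for S100a10 Gcsh (0.777), Vim (0.772) and Ndufb2 (0.761), for S100a11 Avpi1 (0.779), Sfr1 (0.711) and Coq3 (0.701), and for S100a13 Myl6 (0.745), Anxa7 (0.720) and Capns1 (0.682). S100a10 and S100a11 stood at 0.568 with each other. These points share 4 libraries and their depths, and the coefficients are descriptions over 7267 genes. Only 1 of the 27 points was S100a+ Mono, that of BMT replicate 2, at 262 CP10K for S100a8 and 247 for S100a9. The highest other points stood at 40.9 and 7.14 CP10K, and the weight of that 1 point in r was not tested.

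In keratinocytes, normalised as a separate table and without replicates, 7 members varied among the authors' 5 clusters in much the same way in both libraries. S100a6 was highest in Basal cells, at 69.7 CP10K in the BMT and 68.8 in the BMT + T library, and lowest in Differentiated cells, at 15.3 and 15.7. S100a4 (2.76 and 2.73 CP10K in Basal, 1.00 and 0.846 in Differentiated), S100a10 (15.97 and 14.7, 8.06 and 7.43) and S100a13 (2.32 and 2.17, 1.26 and 1.17) were also lower in Differentiated cells in both libraries. S100a16 was higher in Differentiated cells, at 11.1 and 9.61 CP10K against 6.01 and 5.74 in Basal cells, as were S100a14, at 16.2 and 14.1 against 11.8 and 10.8, and S100a11, at 32.1 and 31.0 against 25.01 and 25.04. S100a10 was highest in the cluster KC_Five, at 26.0 and 22.4 CP10K, S100a4 in Follicular cells, at 3.38 and 3.19, and S100a14 lowest in KC_Four, at 7.80 and 7.57. S100a3 had 2 UMIs in each library. With 1 library per label these differences have no test.

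**Figure D5:**
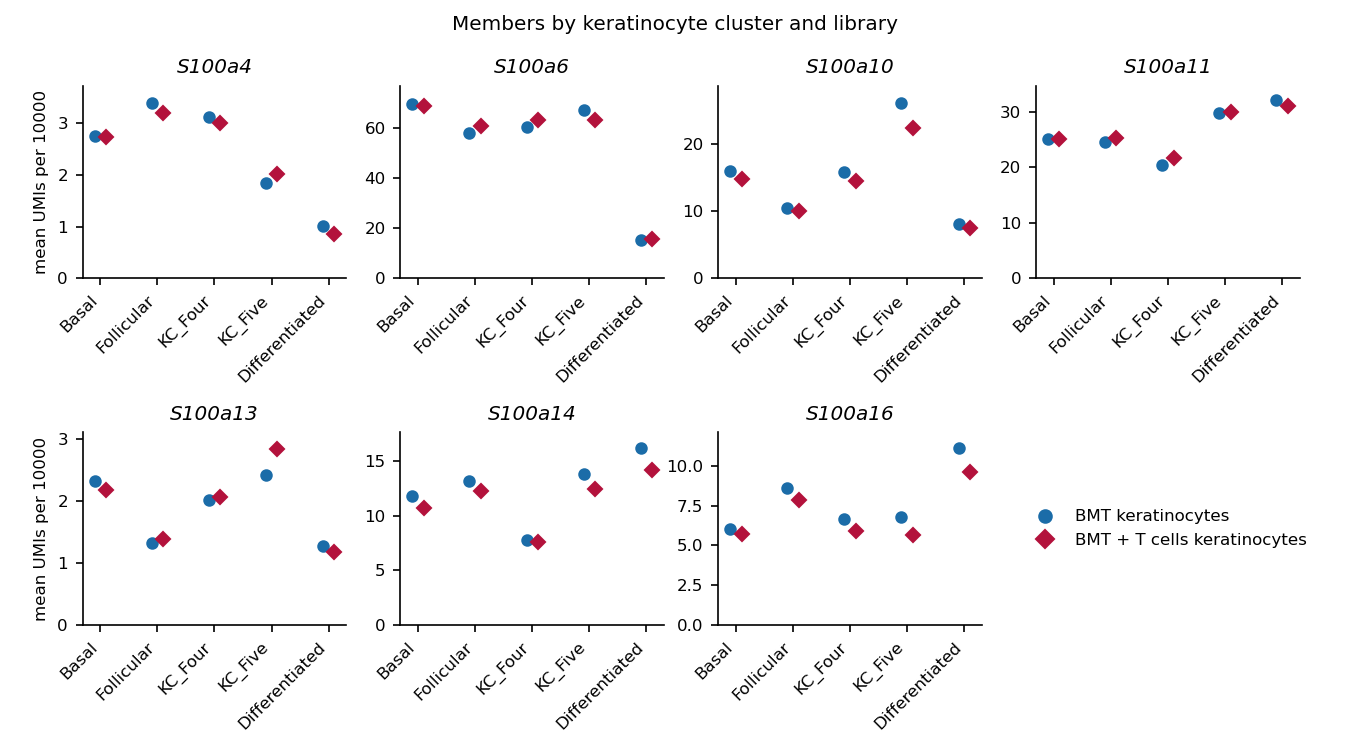
Mean UMIs per 10000 of 7 members (y axes from 0) in the 5 keratinocyte clusters, for the BMT library (circles) and the BMT + T library (diamonds), 1 library each. S100a4, S100a6, S100a10 and S100a13 are lowest in Differentiated cells, and S100a11, S100a14 and S100a16 are highest there.

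Between the labels, the keratinocyte levels of these 7 members differed by a log2 ratio of -0.26 to 0.23 over the 5 clusters. S100a9 was past an absolute log2 ratio of 1 in Basal cells (1.61 on the log2 scale of CP10K + 0.1), at 0.505 CP10K under BMT + T and 0.0981 under BMT. It was 1 of the 9 members that passed the filter there, where 0.413% of all genes were past that size (0.36% higher). In Differentiated, Follicular, KC_Five and KC_Four cells, where 0.224, 0.533, 0.539 and 0.483% of genes were, no member was. S100a8 stood at 0.502 and 0.226 CP10K, a log2 ratio of 0.89. These means came from few cells. In Basal cells of the BMT library, S100a9 was found in 6 cells with S100a8 and in 9 without it. In the BMT + T library these were 29 and 24 cells. In the BMT library 15 of 1684 Basal cells (0.891%, 95% Clopper-Pearson interval 0.499 to 1.46) had an S100a8 UMI, and 1 of them held 809 of the 845 UMIs. In the BMT + T library 56 of 1712 (3.27%, 2.48 to 4.23) had one, and 1 held 645 of 1925 UMIs. Of the Basal cells, 35 in the BMT + T library and 6 in the BMT library had at least 3 UMIs of S100a8 plus S100a9. The median depth was 8223.5 and 8053 UMIs. Myeloid genes (Cd74, Ptprc, Tyrobp, Fcer1g and Lyz2, 5 of 5 listed) summed to 13.7 CP10K in those 35 cells and to 1.54 in the 1632 cells without either transcript. In the BMT library they were at 0 in the 6 cells and at 0.324 CP10K in the 1660 others without a UMI. Their part in the difference was not tested. In Differentiated cells the mean of S100a8 was 0.136 CP10K under BMT + T and 0.171 under BMT. By its share of summed UMIs the ratio of BMT + T to BMT was 1.18 (95% interval from the counts 0.908 to 1.53). No direction is read from these values.

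In host cells, given in a table of their own with 1 library and no test, S100a4 and S100a6 differed between clusters that the deposit gives only by number. Cluster 2 (170 cells), with the highest summed level of the resident mLC markers (50.7 CP10K), had S100a4 at 40.3, S100a6 at 27.7 and S100a11 at 33.8 CP10K. It also had keratinocyte genes at a sum of 49.2 CP10K, against 6.83, 3.42 and 5.12 in clusters 1, 3 and 4, the lowest median depth (1763.5 UMIs), and 58 of 170 cells that passed the study's limits on genes and mitochondrial UMIs. Cluster 4 (90 cells), where migration markers such as Ccr7 and Ccl22 summed to 37.3 CP10K, had S100a4 at 28.9, S100a6 at 18.7 and S100a11 at 13.7. The larger clusters 1 (276 cells) and 3 (161 cells) stood at 2.11 and 6.63 CP10K for S100a4, at 1.58 and 4.63 for S100a6 and at 1.40 and 4.80 for S100a11. The same order of clusters 1 to 4 was seen outside the members. The myeloid genes named above summed to 24.2, 188, 41.9 and 74.3 CP10K in clusters 1 to 4. The resident mLC markers summed to 12.8, 50.7, 18.7 and 33.1 CP10K, so the split was not particular to the S100 genes. Median mitochondrial UMIs were 15.6 and 16.9% in clusters 1 and 3, 12.9% in cluster 4 and 6.09% in cluster 2. The part of RNA quality and of keratinocyte RNA in these levels was not tested.

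Cluster 6 (23 cells), which carries T cell markers, had the highest S100a4, 55.6 CP10K (55.0 without cells of poor quality), and S100a6 at 44.8. Cluster 5 (43 cells), with keratinocyte genes at a sum of 412 CP10K, had S100a6 at 42.0 CP10K and S100a4 at 2.02, and the highest S100a14 and S100a16, 6.81 and 3.54 CP10K. S100a8 stood at 0.0969 CP10K or less in every host cluster. Without host cells with over 20% mitochondrial UMIs or under 500 genes, S100a4 was at 43.5 CP10K in cluster 2 and 1.91 in cluster 1. Host and donor values were normalised in separate tables and are not compared.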

How the data were processed

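The files hold 1 table of donor cells (15155 genes), 1 of keratinocytes (26383) and 1 of host cells (23737). The deposited values are natural log (ln) values that the authors made with Seurat's scheme, ln of 1 plus UMIs per 10000, separately for each table. The authors also deposited a percent of mitochondrial UMIs per cell, and the clusters and libraries of the cells. Build GRCm38, kallisto, bustools and Seurat come from the submitters' processing notes, without versions. The study removed doublets with DoubletFinder, and none were looked for again. No column stayed unmapped (0). UMIs were recovered from the values, and 100% came out whole within 0.001.

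Levels are means of UMIs per 10000 over the cells of a library and cluster, used in tests from 20 cells on. limma 3.58.1 (R 4.3.3) was fitted to log2 of the level plus 0.1, with library as a block, over all clusters and over genes at a mean of at least 0.1, with Benjamini-Hochberg adjustment. Fold changes of low genes are understated on this scale. The study's cutoffs were used between clusters. On simulated data with 200 changed genes (log2 change of 3, 7310 to 7325 genes), 92.5% (migrating mLC) to 99% (resident mLC against Mono) were recovered between clusters, with 0 unchanged genes called. For the labels (7311 genes) 100% were recovered and 9 unchanged genes were called. The simulated spread was preset alike for all genes and held no single cells rich in a transcript. These rates therefore do not carry over to S100a8 and S100a9, whose levels rested in places on such cells. Other steps ran in Python 3.11.15, with SciPy 1.17.1 for intervals, pandas 2.3.3 and NumPy 2.4.6 for tables, and matplotlib 3.10.9 for plots. All listed members are named, and partners and receptors are counted in full with values for some. A further list of genes is not reported here. Likeness names the 3 genes with the highest Pearson r. The members and lists were chosen with earlier results of these data known. Alternatives varied the pseudocount, filter, cell minimum, block, scale, tool, threshold and libraries. Intervals cover counting error only.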

Additional observations from a re-analysis of the deposited data

How the results depend on the processing

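Of 544 values of single members under other settings and choices of libraries, 474 kept direction and side of the threshold, 35 changed sign, 21 lost and 4 gained a call, and 10 moved. The members called in resident mLC against Mono went from 1 to 0 with a pseudocount of 1, with means of the ln values, without the replicate block and with voom on UMI sums, to 2 at a fold threshold of 1, and lay between 0 and 1 when a library was left out. Against Mrc1+ macrophages they went from 1 to 0 with a pseudocount of 1, ln means or voom and to 2 at a fold threshold of 1, and lay between 0 and 2 without a library. In Hmox1+ Mono against Mono they went from 1 to 0 with a pseudocount of 0.01, no filter, ln means, at least 50 cells, no block, voom, or only the 2 clusters, and lay between 0 and 1 without a library. With the experiment as a term 1 member, S100a8, was called between labels, as were 141 of 7345 genes, but that value sets 1 library against 1, and 1 macrophage held 58 of the 90 S100a8 UMIs of its cluster there. In keratinocytes the count of 1 went to 0 with a pseudocount of 1 or ln means and to 2 with 0.01. For S100a8, the adjusted p from limma without the replicate block was 0.0524 for resident mLC against Mono and 0.0531 for Hmox1+ Mono against Mono. The cause of these losses was not tested.

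Counts over all genes moved by over 1.5 times. With pseudocounts of 0.01 and 1, ln means, voom and a fold of 1 they were 630, 41, 21, 565 and 1074 for resident mLC against Mono (295), 547, 42, 18, 474 and 1007 against Mrc1+ macrophages (255), and 421, 26, 17, 408 and 873 for migrating mLC (190). They were 284, 16, 9, 110 and 483 for Hmox1+ Mono (65), 78, 5, 3, 91 and 223 for Mrc1+ macrophages against Mono (30), and 183, 8, 6, 163 and 436 for cycling mLC (99), with 65 at 50 cells. Between labels 0 became 141 with the experiment term and 202 without BMT replicate 3.

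The signs that changed were of values that had not passed the test. In resident mLC against Mono S100a10 went to -0.034 with ln means and S100a9 to 0.049 with a pseudocount of 0.01. In migrating mLC S100a8 went to -0.079 with a pseudocount of 1 and -0.035 with ln means, and S100a9 to -0.033 with only the 2 clusters. In Hmox1+ Mono S100a13 went to -0.076 with ln means, and in Mrc1+ macrophages against Mono S100a8 to -0.089 with ln means and -0.77 with voom. In cycling mLC S100a9 went to 0.079 with a pseudocount of 1, 0.0021 with ln means, 0.99 at 50 cells, 0.084 without the block and 0.99 with voom. Between labels S100a11 went to 0.37 with all cells pooled and 0.0073 with the experiment term, S100a10 to 0.14 and S100a13 to -0.079 pooled, and S100a8 to -0.15 and S100a9 to -0.076 with ln means.

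Without 1 library, values in resident mLC against Mono ran from -0.11 to 0.12 for S100a10 and from -0.14 to 0.15 for S100a9. In migrating mLC they ran from -0.0087 to 0.25 for S100a13, from -0.39 to 0.57 for S100a8 and from -0.097 to 0.45 for S100a9. In Hmox1+ Mono S100a13 ran from -0.079 to 0.16, and in Mrc1+ macrophages against Mono S100a8 from -0.63 to 0.92. In cycling mLC S100a8 ran from -0.22 to 0.35 and S100a9 from -0.71 to 0.39. Between labels S100a11 ran from -0.079 to 0.026 and S100a8 from -0.29 to 0.79. Where leaving out a library left migrating mLC with 1 library, that library was taken to vary like the rest.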
